A study of Homo sapiens with 4 samples.

Results

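Kinesins are motor proteins that hydrolyse ATP to move along microtubules or to take them apart. In fibroblasts, mitotic kinesins build the spindle, position chromosomes and complete cytokinesis, and their messenger RNAs accumulate when cells approach division. Transport kinesins carry vesicles, endosomes, mitochondria and RNA through the cytoplasm and are made throughout the cell cycle. The kinesin genes described here are all rows whose symbol is KIF or KIFC followed by a number and an optional letter, which gave 42 genes of 26255 in the deposited files. They were sorted by known role into 14 mitotic kinesins, 15 transport kinesins and 13 others, which act mainly in cilia, Hedgehog signalling or control of microtubule length. The class names come from textbook roles and not from these data.

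The RNA came from MRC5, a line of human lung fibroblasts, labelled as a normal cell type of wild-type genotype and placed at 48 h by the sample titles. In the tested condition, miRs (2 libraries), the cells were given microRNAs, short RNAs that pair with messenger RNAs and lower their level, which the labels do not name. The other condition is control (2 libraries), whose treatment label says no, although the title of the series speaks of a negative-control microRNA. All libraries share the cell line, the time and the kit, and no label says whether the replicates came from separate cultures. The p-values therefore weigh differences against variation between these libraries alone, and that variation could be technical.

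Values are FPKM, a fragment count divided by transcript length and library size, so levels can be compared between genes. The total number of reads is unknown, but the most common ratio among low values gives the worth of 1 fragment: it was 1.14 times larger in the second miRs library than in the first, and 1.05 times larger in the second control than in the first. The 11860 genes whose mean over all libraries reached 1 FPKM were tested together with limma on log2(FPKM + 1). Of these, 29 (0.245%) passed an adjusted p of 0.05, 12 higher in miRs (0.101%) and 17 lower (0.143%). Both miRs libraries lay above both controls in 29.5% of the tested genes and below both in 30.0%, and the median log2 difference of all tested genes was -0.002. All 8 fibroblast markers on the list were above the minimum in these cells. In DCN, THY1, LUM and VIM both miRs libraries lay below both controls, while COL1A1, COL1A2, COL3A1 and PDGFRB overlapped between the groups, and COL1A1 and COL3A1 had log2 differences above 0 (0.31 and 0.34). The median log2 difference of the 8 markers was -0.68, with -0.85 in the first miRs library and -0.31 in the second. Markers of blood and endothelium were at or near 0 (PTPRC at most 0.0182 FPKM, CD3E listed at 0 in all libraries, PECAM1 at most 0.0174 FPKM), apart from the receptor TEK. The 6 epithelial markers summed to 2.55 and 3.07 FPKM in the miRs libraries, against 0.528 and 1.38 FPKM in the controls. CDH1 was listed at 0 in 3 of the 4 libraries. The part of these markers in the kinesin results was not tested.

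The 2 large classes of kinesins lay on opposite sides of control. Of 12 mitotic kinesins above the minimum, 10 (83.3%, against 29.5% of all tested genes) had both miRs libraries above both controls and 0 had both below. Of 12 transport kinesins above it, 10 (83.3%, against 30.0% of all tested genes) had both miRs libraries below both controls and 1 had both above. Over all 27 kinesins above the minimum, the groups did not overlap in 22, against 59.5% of all tested genes. By the mean log2 level alone, 11 of 12 mitotic kinesins were higher in miRs, against 49.8% of all tested genes, and 11 of 12 transport kinesins were lower, against 50.2%. The median log2 difference, miRs minus control, was 0.37 for the mitotic kinesins and -0.41 for the transport kinesins. No kinesin passed the adjusted threshold in limma. An unadjusted p under 0.05 was found for 12 of 27 kinesins, against 24.2% of all tested genes: 7 were higher in miRs, all mitotic (58.3% of the 12, against 11.2% of all tested genes), and 5 lower, all transport (41.7% of the 12, against 13%). The members were chosen with earlier results in view, so these counts are a description.

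**Figure D1:**
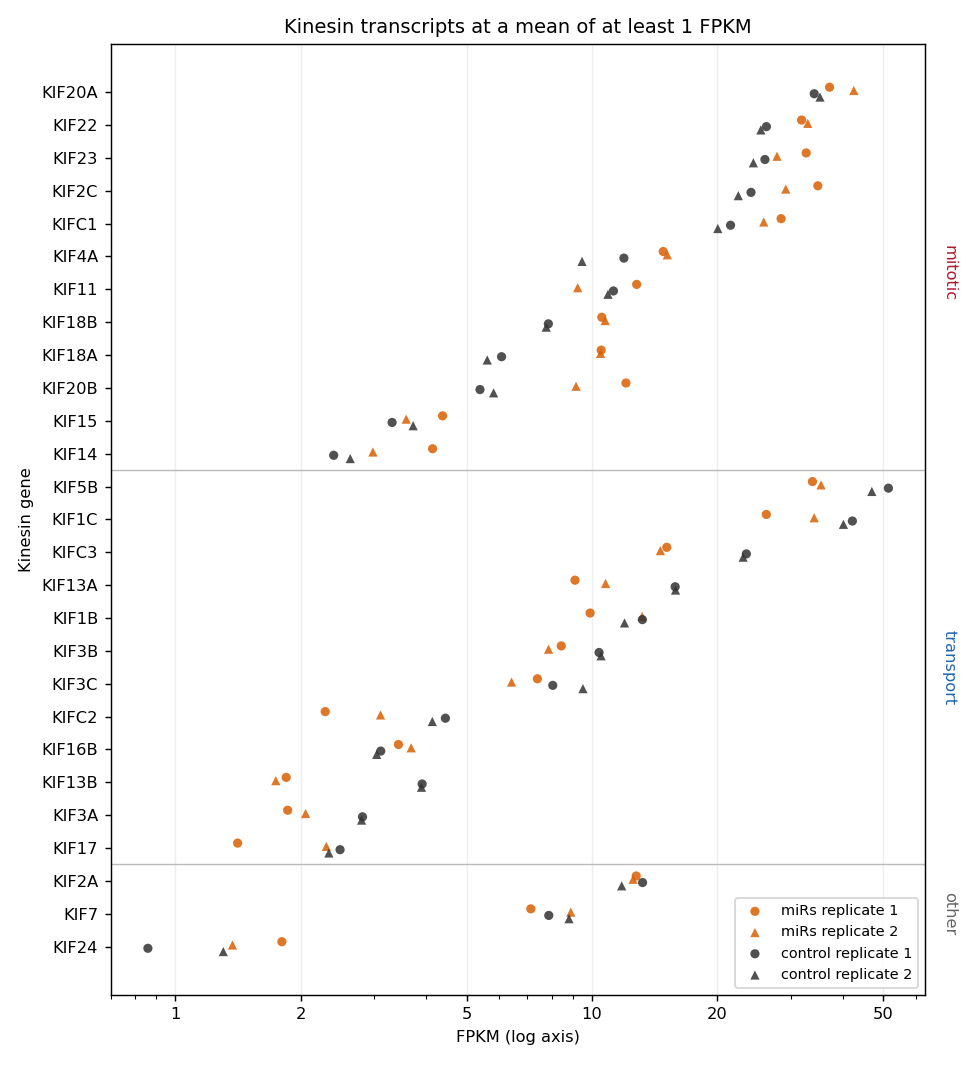
FPKM of the 27 kinesins at a mean of at least 1 FPKM, on a log axis, with 1 point per library and genes ordered by mean level within each class. Orange points (miRs) lie right of black points (control) in 10 of 12 mitotic kinesins and left of them in 10 of 12 transport kinesins.

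The summed level of each class shows the same split per library. The 14 mitotic kinesins summed to 235 and 219.9 FPKM in the miRs libraries, against 180.3 and 174 FPKM in the controls. The 15 transport kinesins summed to 121 and 136 FPKM in the miRs libraries, against 182 and 175 FPKM in the controls. The ratio of the mitotic to the transport sum was therefore 1.94 and 1.62 in miRs, against 0.992 and 0.994 in control. Neither class overlaps between the groups in its sum. The sum over all 42 kinesins was 379.9 and 382 FPKM in miRs, inside the range of 386 and 373 FPKM in control.

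**Figure D2:**
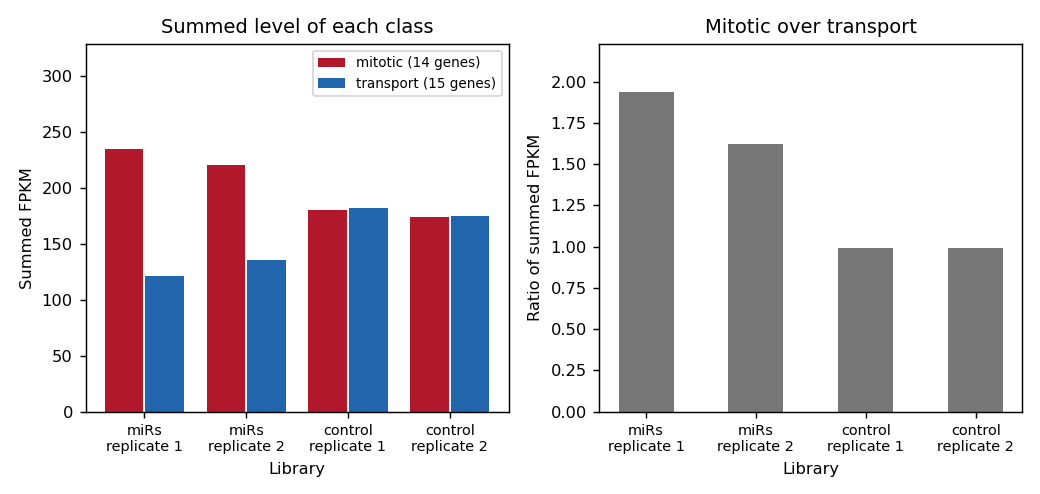
Summed FPKM of the mitotic and the transport kinesins in each library (left) and their ratio (right), with bars from 0 and no error bars since each bar is 1 library. Both miRs libraries have a ratio above 1.6, while both controls are just under 1.

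Both miRs libraries gave the contrast. Against the mean of the controls, the mitotic kinesins had a median log2 difference of 0.41 in the first miRs library and 0.31 in the second, and the transport kinesins one of -0.51 and -0.37. The gap between the class medians was thus 0.93 in the first and 0.68 in the second, and 0.77 in the fit over all libraries. All 12 mitotic kinesins above the minimum exceeded both controls in the first miRs library, and 10 of them did so in the second. Of the 12 transport kinesins above the minimum, 11 lay below both controls in the first miRs library and 10 in the second. The share of all tested genes beyond both controls was not computed for single libraries, so these counts are a description. In bulk RNA a change in the share of cells that are dividing cannot be told apart from a change in RNA per cell.

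Among the mitotic kinesins, KIF18A and KIF20B differed most. KIF18A, a plus-end motor that damps the movements of chromosomes at metaphase, was at 10.5 FPKM in each miRs library, against 6.07 and 5.61 FPKM in the controls. The groups lie far apart for the spread within each, with a ratio of means of 1.80 and a log2 difference of 0.75 ± 0.13 (SE; adjusted p = 0.0846 in limma). KIF20B, which acts late in mitosis and in cytokinesis, was at 12.1 and 9.16 FPKM in miRs, against 5.39 and 5.81 FPKM in control. Its miRs libraries differ more from each other, yet both exceed both controls, with a ratio of means of 1.90 and a log2 difference of 0.81 ± 0.18 (SE; adjusted p = 0.0998). Over the alternatives computed, the adjusted p of these genes ranged from 0.0181 to 0.633 and from 0.0108 to 0.660, the low values coming from fits that left out a miRs library and the high ones from fits that left out a control.

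The motors and depolymerases that handle chromosomes differed less. KIF2C, or MCAK, which takes microtubules apart at centromeres, was at 34.9 and 29.2 FPKM in miRs, against 24.1 and 22.5 FPKM in control (log2 difference 0.44 ± 0.15, adjusted p = 0.175). KIF4A, a chromokinesin that also works with PRC1 at the central spindle, was at 14.8 and 15.2 FPKM, against 11.9 and 9.47 FPKM (0.46 ± 0.16, adjusted p = 0.181). KIF22, the chromokinesin that pushes chromosome arms away from the poles, was at 31.9 and 33.0 FPKM in miRs, against 26.2 and 25.5 FPKM in control (0.32 ± 0.12, adjusted p = 0.206). In all 3 genes the lowest miRs library was above the highest control. KIF4B, an intronless copy of KIF4A, was listed at 0 in every library, and fragments that match both could have been assigned to either, so the level of KIF4A is uncertain.

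Kinesins of spindle architecture were mixed. KIFC1, a minus-end motor that gathers spindle poles, was at 28.5 and 25.9 FPKM in miRs, against 21.5 and 20.1 FPKM in control (0.37 ± 0.13, adjusted p = 0.189). KIF18B, which limits the length of astral microtubules, was at 10.6 and 10.8 FPKM, against 7.86 and 7.77 FPKM (0.40 ± 0.12, adjusted p = 0.154). Neither gene overlaps between the groups. KIF11, or Eg5, the motor that pushes the spindle poles apart, was at 12.8 and 9.25 FPKM in miRs, on both sides of 11.3 and 10.9 FPKM in control (-0.02 ± 0.19, adjusted p = 0.948). KIF15, which can stand in for KIF11 in keeping the spindle bipolar, was at 4.38 and 3.58 FPKM, against 3.31 and 3.72 FPKM. For KIF11 and KIF15, the pair that supplies this outward force, the groups overlap.

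The other kinesins of the midzone and cytokinesis had no unadjusted p under 0.05 in limma. KIF20A, which brings the chromosomal passenger complex to the central spindle, was the most abundant mitotic kinesin, at 37.2 and 42.6 FPKM in miRs, against 34.2 and 35.3 FPKM in control (0.19 ± 0.13, adjusted p = 0.426). KIF23, the motor subunit of centralspindlin, was at 32.7 and 27.8 FPKM, against 26.04 and 24.4 FPKM (0.25 ± 0.14, adjusted p = 0.345). KIF14, which recruits citron kinase to the midbody, was at 4.14 and 2.98 FPKM in miRs, against 2.40 and 2.63 FPKM in control. All 3 genes were higher in both miRs libraries, by less than 1.5-fold in their means. KIF2B, a mitotic depolymerase related to KIF2C, was listed at 0 in all libraries.

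Among the transport kinesins, KIF13B, KIF13A and KIFC3 differed most. KIF13B, a vesicle motor of the kinesin-3 family, was at 1.84 and 1.74 FPKM in miRs, against 3.91 and 3.90 FPKM in control, a mean 2.18-fold lower in miRs (-0.81 ± 0.15, adjusted p = 0.0866 in limma). Its relative KIF13A, which moves recycling endosomes, was at 9.11 and 10.8 FPKM in miRs, against 15.8 and 15.9 FPKM in control (-0.63 ± 0.14, adjusted p = 0.102). KIFC3, a minus-end motor of the Golgi and of adherens junctions, was at 15.1 and 14.6 FPKM, against 23.5 and 23.1 FPKM (-0.61 ± 0.12, adjusted p = 0.0914). In these genes the replicates of each group lie close together and the groups are well apart.

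KIF5B, the widely made heavy chain of conventional kinesin, was the most abundant kinesin in control. Its level was 33.9 and 35.5 FPKM in miRs, against 51.5 and 47.02 FPKM in the controls (-0.49 ± 0.13, adjusted p = 0.123). KIF1C, a fast carrier of vesicles, was at 26.2 and 34.2 FPKM, against 42.2 and 40.2 FPKM (-0.45 ± 0.17, adjusted p = 0.210). In miRs KIF20A was the most abundant kinesin by mean and KIF5B was next to KIF22 and KIF2C, with means of 34.7, 32.4 and 32.05 FPKM. These neighbours in the order do not separate, since the 2 miRs libraries of KIF2C span 29.2 to 34.9 FPKM. KIF1B, which carries mitochondria and precursors of synaptic vesicles, was at 9.90 and 13.2 FPKM in miRs, against 13.2 and 12.0 FPKM in control (-0.13 ± 0.18, adjusted p = 0.692). Its groups overlap.

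KIF3A and KIF3B are the motor chains of kinesin-2, which with the adaptor KIFAP3 carries material within cilia and in the cytoplasm. KIF3B was at 8.44 and 7.87 FPKM in miRs, against 10.4 and 10.5 FPKM in control (-0.32 ± 0.13, adjusted p = 0.212). KIF3A was at 1.86 and 2.05 FPKM, against 2.81 and 2.80 FPKM. Both motor chains lay below control in both miRs libraries, while KIFAP3, at 9.27 and 7.30 FPKM in miRs against 9.25 and 8.09 FPKM in control, overlapped. KIF3C, an alternative partner of KIF3A, was at 7.40 and 6.41 FPKM, against 8.06 and 9.52 FPKM.

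The remaining transport kinesins were low. KIFC2, a minus-end motor studied in mouse neurons, was at 2.29 and 3.11 FPKM in miRs, against 4.45 and 4.14 FPKM in control (-0.53 ± 0.18, adjusted p = 0.178). KIF17, studied in mouse as a dendritic carrier, was at 1.41 and 2.30 FPKM, against 2.49 and 2.34 FPKM. KIF16B, which moves early endosomes, was the exception of the class, at 3.43 and 3.68 FPKM in miRs, against 3.11 and 3.04 FPKM in control (log2 difference 0.16, adjusted p = 0.530). KIF5A and KIF5C, the neuronal heavy chains, were at 0.0599 and 0.0684 FPKM and at 0.0123 and 0.0141 FPKM in miRs, against 0.178 and 0.210 FPKM and 0.0365 and 0.0721 FPKM in control. In KIF5A, KIF5C and KIF6 the ratio of the 2 miRs libraries was 1.14, the ratio that equal numbers of fragments give, and no fold change is drawn from such low values. KIF1A, a neuronal carrier, was listed at 0 in all libraries.

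**Figure D3:**
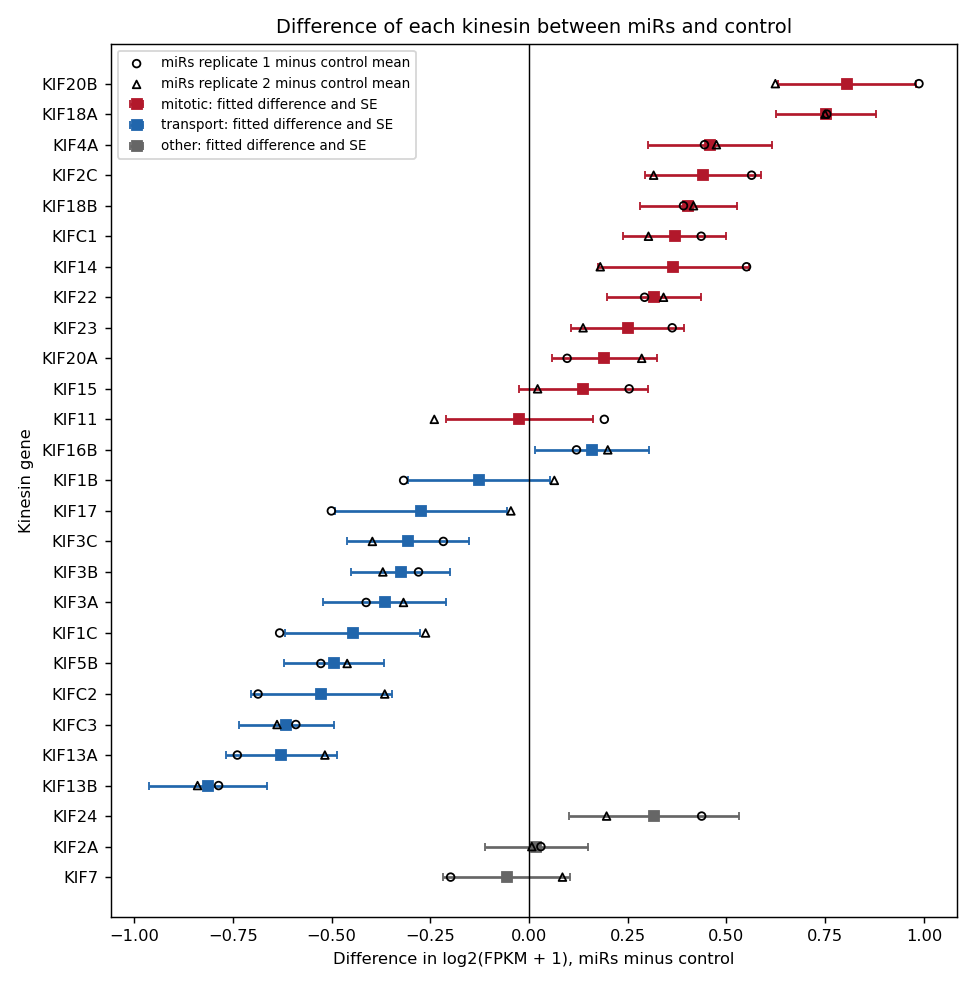
Difference in log2(FPKM + 1), miRs minus control, for the 27 tested kinesins, with squares and bars for the limma estimate and its SE and open symbols for each miRs library against the control mean. Mitotic kinesins run from -0.02 to 0.81 and transport kinesins from -0.81 to 0.16, and the only members across the line from their class are KIF11 and KIF16B.

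Of the other 13 kinesins, 3 reached the minimum and none had an unadjusted p under 0.05 in limma. KIF2A, a depolymerase at spindle poles and in interphase cells, was at 12.8 and 12.6 FPKM in miRs, against 13.2 and 11.8 FPKM in control (0.02 ± 0.13, adjusted p = 0.944). KIF7, the ciliary-tip regulator of Hedgehog signalling, was at 7.14 and 8.90 FPKM, against 7.88 and 8.81 FPKM. KIF24, which restrains cilium formation at the mother centriole, was at 1.80 and 1.37 FPKM in miRs, against 0.859 and 1.303 FPKM in control. KIF2A and KIF7 overlap between the groups, and KIF24 does not, although its lower miRs library is close to its higher control. When KIF2A and KIF24 were put with the mitotic kinesins, the median log2 difference of that class was 0.34.

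The others lay below the minimum. KIF21B, which controls microtubule growth, was at 0.325 and 1.07 FPKM in miRs, against 0.154 and 0.275 FPKM in control, and its relative KIF21A at 0.773 and 0.608 FPKM, against 0.301 and 0.423 FPKM. KIF26B, an atypical kinesin without ATPase activity, was at 0.219 and 0.749 FPKM, against 0.0927 and 0.207 FPKM. In these 3 genes both miRs libraries exceeded both controls, and in KIF21B and KIF26B the miRs libraries stand more than 3-fold apart. KIF27, a relative of KIF7, and the axonemal kinesin KIF9 lay between 0.388 and 0.810 FPKM in all libraries. KIF6, another axonemal kinesin, stayed at or under 0.0912 FPKM, KIF12 was seen only in miRs replicate 2 at 0.0468 FPKM, and KIF19, KIF25 and KIF26A were listed at 0 throughout.

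Several kinesins share exonic sequence with a neighbour in GENCODE 29. KIF18A overlaps METTL15, KIF20A overlaps BRD8 and CDC23, KIF4A overlaps PDZD11, KIF7 overlaps TICRR, KIF24 overlaps UBAP1 and KIFC2 overlaps FOXH1, all on the opposite strand, and KIF2A shares sequence with IPO11 on the same strand. The library kit keeps the strand, but the strand setting used in quantification is not given in the sources used here, so these levels carry that uncertainty.

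The partners of the mitotic kinesins mostly lay on the same side of control as the motors, and 0 passed the adjusted threshold in limma (5 higher, or 27.8% against 11.2% of all tested genes, and 0 lower at an unadjusted p under 0.05). Of 18 partner genes, all tested, 12 had both miRs libraries above both controls (66.7%, against 29.5% of all tested genes), 1 had both below, and the median log2 difference was 0.24. PLK1, the kinase that docks on central spindle kinesins, was at 52.9 and 54.9 FPKM in miRs, against 36.7 and 32.6 FPKM in control (adjusted p = 0.0954 in limma). TPX2, which targets KIF11 and KIF15 to spindle microtubules, was at 69.9 and 56.3 FPKM, against 43.5 and 38.6 FPKM (adjusted p = 0.135). Neither gene overlaps between the groups. The kinase AURKB had an adjusted p of 0.139, the spindle proteins DLGAP5 and NUSAP1 had 0.176 and 0.197, and CENPE, the kinetochore kinesin whose symbol falls outside the KIF names, had 0.226 at 8.27 and 6.35 FPKM, against 5.12 and 5.24 FPKM. MAPRE1, the plus-end tracking protein EB1, at 67.97 and 51.1 FPKM against 79.2 and 68.7 FPKM, and the scaffold ANLN, at 62.997 and 51.7 FPKM against 68.9 and 59.1 FPKM, had lower means in miRs, and only MAPRE1 did not overlap between the groups.

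Proliferation genes were also mostly higher, with 0 past the adjusted threshold in limma and 9 higher (52.9%, against 11.2% of all tested genes) and 1 lower (5.88%, against 13%) at an unadjusted p under 0.05. Of 17 on the list, 13 had both miRs libraries above both controls (76.5%, against 29.5%) and 1 had both below, with a median log2 difference of 0.34. MYBL2, or B-Myb, which activates G2/M genes, was at 33.4 and 36.9 FPKM in miRs, against 16.5 and 17.3 FPKM in control (log2 difference 1.01, adjusted p = 0.0663 in limma). FOXM1, its partner in that task, was at 40.04 and 38.03 FPKM, against 26.1 and 27.8 FPKM (adjusted p = 0.110). Both separate cleanly between the groups. LIN9, a subunit of the MuvB complex that binds these genes' promoters, was at 4.36 and 2.93 FPKM, against 1.70 and 1.73 FPKM (adjusted p = 0.138), and the mitotic activator CDC20 had an adjusted p of 0.139. CCNA2 had an adjusted p of 0.0822, at 44.4 and 41.7 FPKM against 25.9 and 23.8 FPKM. E2F1 was lower in miRs, at 6.15 and 4.72 FPKM against 9.63 and 8.53 FPKM (adjusted p = 0.127), and RRM2, at 64.95 and 33.1 FPKM against 57.3 and 46.7 FPKM, had a lower mean log2 level in miRs with groups that overlap.

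Adaptors and cargo linkers of the transport kinesins were mostly lower, with 0 past the adjusted threshold in limma and 4 lower (23.5%, against 13% of all tested genes) and 1 higher (5.88%, against 11.2%) at an unadjusted p under 0.05. Of 17 tested, 10 had both miRs libraries below both controls (58.8%, against 30.0%) and 1 had both above, with a median log2 difference of -0.27. FYCO1, which links late endosomes and autophagosomes to kinesin, was at 4.06 and 2.90 FPKM in miRs, against 12.9 and 12.97 FPKM in control (log2 difference -1.65, adjusted p = 0.0632 in limma). The mitochondrial GTPase RHOT1, or Miro1, was at 9.38 and 10.7 FPKM, against 14.5 and 13.8 FPKM (adjusted p = 0.148). Both separate by group. The scaffold MAPK8IP3 and the mitochondrial adaptor TRAK1 had adjusted p-values of 0.180 and 0.210 and were lower in both miRs libraries. KLC3, a kinesin light chain, was higher, at 1.81 and 2.12 FPKM against 0.826 and 0.759 FPKM (adjusted p = 0.117).

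Dynein and dynactin, the motor complex that runs toward the minus end against most kinesins, were also mostly lower, with 0 past the adjusted threshold in limma and 7 lower (31.8%, against 13% of all tested genes) at an unadjusted p under 0.05. Of 22 tested genes, 12 had both miRs libraries below both controls (54.5%, against 30.0%) and 1 had both above, with a median log2 difference of -0.22. The cargo adaptor BICD2 was at 10.2 and 8.78 FPKM in miRs, against 19.6 and 17.9 FPKM in control (adjusted p = 0.0769 in limma), and its relative BICD1 at 1.92 and 2.35 FPKM, against 4.77 and 5.34 FPKM (adjusted p = 0.0846). The light chain DYNLRB1 was at 180 and 179 FPKM, against 281 and 257 FPKM, and dynactin subunit DCTN3 at 62.3 and 64.4 FPKM, against 97.6 and 90.9 FPKM. All 4 genes have no overlap between the groups. DYNLT3 and PAFAH1B1, or LIS1, had adjusted p-values of 0.122 and 0.167 and were lower as well. DYNLT1, at 156 and 107 FPKM against 134 and 113 FPKM, had a slightly higher mean in miRs and overlapped.

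The genes' promoters differ in sequence. In dividing cells a pair of elements, the cell cycle genes homology region (CHR) and CCAAT boxes bound by NF-Y, is known to time many G2/M genes, with MuvB complexes binding the CHR. RefSeq promoters of 300 bases (250 before to 50 after the start, GRCh38.p14) were found for all 14 mitotic kinesins, 11 of 15 transport kinesins and 9 of 13 others. They were searched on both strands for TTTGAA or TTCGAA (CHR), CCAAT, and the E2F sites TTTCCCGC, TTTGGCGC, TTTGCCGC and TTTCGCGC. TTCGAA reads the same on both strands and was counted once per place, and in the kinesin promoters no match of one motif overlapped a match of another. The following windows are shown because they carry the CHR of 6 mitotic kinesins that were higher in both miRs libraries, of KIF11, whose groups overlap, and, last, of the only transport kinesin with a match. Each is read along the gene, with the motif or its reverse complement in capitals.
KIF18A, chr11:28108149-28108178, minus strand: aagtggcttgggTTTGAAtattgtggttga
KIF20B, chr10:89701602-89701631, plus strand: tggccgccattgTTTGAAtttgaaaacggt
KIF4A, chrX:70290058-70290087, plus strand: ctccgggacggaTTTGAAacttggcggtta
KIFC1, chr6:33391815-33391844, plus strand: tggccgttggaaTTCAAAagtggcgggtgt
KIF18B, chr17:44947754-44947783, minus strand: ccgcccggctaaTTTGAAcgcaaggcgccg
KIF22, chr16:29790712-29790741, plus strand: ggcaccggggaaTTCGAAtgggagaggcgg
KIF11, chr10:92593090-92593119, plus strand: ctctgtctctttTTCAAAttgaggcgccga
KIF5B, chr10:32056548-32056577, minus strand: agtgcagtaaaaTTTGAAtctgcgaccccg

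A CHR match was present in 11 of 14 mitotic kinesin promoters (78.6%), against 1 of 11 transport kinesin promoters and 11.2% of the promoters of all tested genes. CCAAT was present in 11 of 14 mitotic promoters (78.6%), against 3 of 11 transport promoters and 36.8% of tested genes, and both motifs together in 10 of 14 (71.4%), against 1 of 11 and 4.8%. E2F sites were found in 1 of 14 mitotic and 0 of 11 transport promoters, against 5.56% of tested genes. The 14 include KIF2B and KIF4B, which were listed at 0 in all libraries and so were not among the tested genes. Of the 12 mitotic kinesins above the minimum, 10 held a CHR (83.3%), 10 held CCAAT (83.3%) and 9 held both (75.0%). Under 80% of the transport kinesins (73.3%) and of the others (69.2%) had a promoter, so their shares are void as a description of the whole class and only the counts are given. KIF2C, which was higher in both miRs libraries, held none of these letters in its window, and KIF20A held CCAAT without the CHR. KIF11 held both and did not separate between the groups. Among the other kinesins KIF24 was the 1 of 9 with a CHR match. Counted from the start, the printed CHR begins at -10 in KIF18A, -34 in KIF4A, -27 in KIF22, -28 in KIF11, 24 in KIF20B, 4 in KIFC1 and 2 in KIF18B, and farther out, at -140, in KIF5B. The printed window of KIF20B holds another TTTGAA, beginning at 30, that is left in small letters. The median share of G and C was 62.0% in the 14 mitotic promoters and 69.7% in the 11 transport promoters found. The part of this base composition in the motif counts was not tested. A match is a run of letters and does not show that the site is used.

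**Figure D4:**
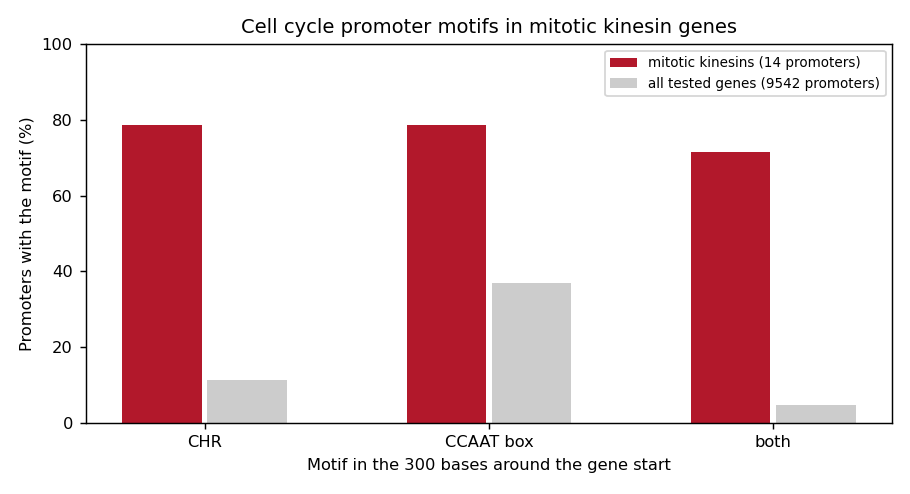
Share of promoters, in percent, that hold a CHR, a CCAAT box or both, for the 14 mitotic kinesins and for all tested genes, with the number of promoters in the legend. The mitotic kinesins are at 78.6%, 78.6% and 71.4%, against 11.2%, 36.8% and 4.8% for all tested genes.

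The 3′ ends differ as well. MicroRNAs pair by their seed, bases 2 to 8, with matching stretches of 3′ untranslated regions (UTRs). The longest annotated 3′ UTR (GENCODE 29) had a median of 584 bases in the 12 tested mitotic kinesins and 2454.5 bases in the 12 tested transport kinesins, against 1391 bases over all tested genes. Coding lengths were similar in both classes, with medians of 2787 and 2988 bases. KIF22, with 75 bases, has the shortest 3′ UTR of the tested kinesins, and KIF1B, with 5016 bases, the longest.

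To see which letters went with lower levels, every 7-mer was regressed across the tested genes, with the kinesins left out, against the log2 difference, given UTR length, base composition and expression. Of 15774 7-mers ranked over 10772 genes, GCACTTA came first, with a log2 slope of -0.20, and AGCACTT second, with -0.10. Genes are not replicates, so this is a description, and the same libraries give the differences of the kinesins. AGCACTT pairs with bases 2 to 8 of 12 mature human microRNAs in the RefSeq table, 5 of them of the miR-302 family, and GCACTTA with bases 2 to 7 of 15, with an A after the match. The labels name no microRNA, so whether any given to the cells carries this seed is not known. The mature sequence of 1 of these microRNAs (RefSeq, GRCh38.p14, chr4:112648186-112648208, minus strand) is shown with the seed in capitals, followed by windows of kinesin 3′ UTRs with the match in capitals. The first 4 are transport kinesins, and the last is mitotic.
hsa-miR-302a-3p: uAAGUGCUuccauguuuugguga
KIF5B: tcattaaacacAGCACTTActcttaaaaat
KIF13A: tatttttttttGCACTTActacacacctcc
KIF3C: agcagcccctgAGCACTTtctgggactggg
KIF3B: cataggcatgaAGCACTTtcttaagactga
KIF14: atctggcaagtAGCACTTtgcctgtgcagt

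A match of either 7-mer was present in the 3′ UTR of 8 of 12 tested transport kinesins (66.7%) and of 2 of 12 tested mitotic kinesins (16.7%), against 29.0% of all tested genes with a 3′ UTR. Many of these matches are not distinct in sequence. In tested kinesins other than KIF13B, 7 of 13 match windows shared their flanks, TAATCC shortly before and GGGAGGC shortly after. Of these, 5 were in transport and 2 in mitotic kinesins. KIF1C, KIF3A and KIF11 had matches of this kind only, and none of the printed windows is of this kind. The first-ranked GCACTTA was found in 3 of 12 tested transport kinesins, KIF5B, KIF13A and KIF13B, and in 0 of 12 tested mitotic kinesins. Of the 10772 genes in the ranking, which leaves out the kinesins, 9.58% held it. With so few kinesins in each class, these counts are a description. The 3 transport kinesins had log2 differences of -0.49, -0.63 and -0.81. A longer UTR has more room for any 7-mer, and its part in these counts was not tested. Transport kinesins with a match had a median log2 difference of -0.41 and those without one -0.40, which lie close together. KIFC3 and KIFC2, with 3′ UTRs of 717 and 813 bases and no match, had log2 differences of -0.61 and -0.53. In the tested mitotic kinesins the medians were 0.17 with a match (2 genes, KIF11 and KIF14) and 0.39 without. In all tested genes the medians were -0.05 with a match and 0.02 without.

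**Figure D5:**
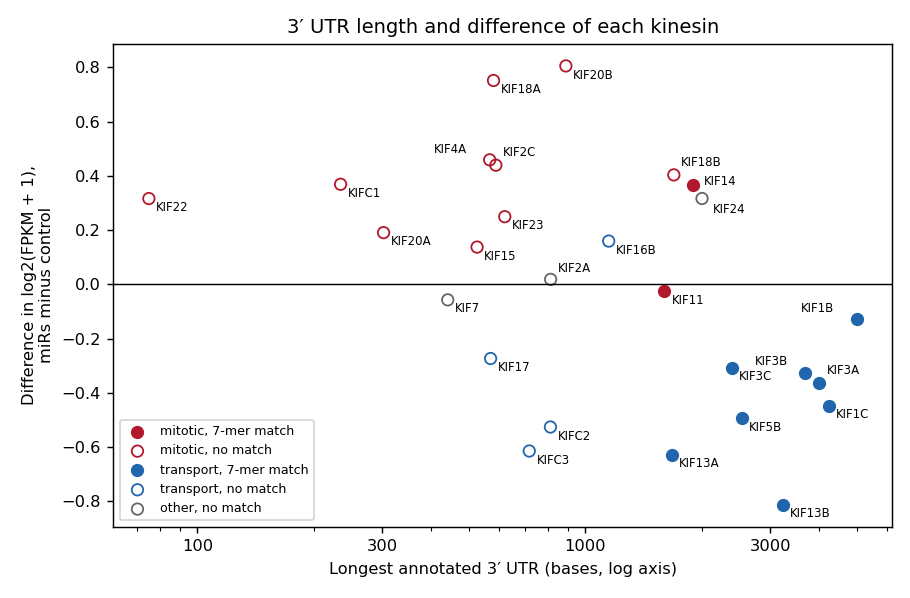
Longest annotated 3′ UTR in bases (log axis) against the difference in log2(FPKM + 1), miRs minus control, for the 27 tested kinesins, with filled points for genes that hold GCACTTA or AGCACTT. Mitotic kinesins have a median length of 584 bases and lie mostly above 0, transport kinesins have a median of 2454.5 bases and lie mostly below 0, and transport kinesins with and without a match lie at similar heights.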

How the data were processed

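RNA of 4 MRC5 libraries (2 miRs, 2 control) was measured. Per the labels' protocols, libraries were made with a stranded mRNA kit. Tools listed in the submitters' processing notes are Cuffdiff 2.2.1, SAMtools 0.1.18, Bowtie2 2.2.8 and TopHat2 2.1.1, and the build is hg19. The deposited values are FPKM per gene symbol, per the file headers. The labels and headers do not state the annotation, library scaling or read totals, so precision rests on 2 libraries in each group (residual degrees of freedom: 2).

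Genes at a mean of at least 1 FPKM were tested on log2(FPKM + 1) in limma 3.58.1 (R 4.3.3, variance trend, 2-sided, Benjamini-Hochberg, threshold 0.05), and kinesin rows were read from that fit. A difference in log2 understates the change of low genes. The fit was checked with simulated data that mimic the miRs and control libraries (11525 genes), where it recovered 75 of 97 genes given a log2 change of 2 and 4 of 98 given 1 and wrongly called 4 of 11330 others. Kinesins at 1 FPKM have values given per library, and SE and p were printed for an unadjusted p under 0.05 or a mean of at least 10 FPKM, with those of KIF3B and the p of KIF16B added after their values were seen. Up to 6 partners per list with the smallest p were named, plus those at 50 FPKM against the majority of a list; 1 such partner and some sequence windows are not reported here. The members, classes and lists were chosen with earlier results of these data known.

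Promoters, microRNAs (RefSeq, GRCh38.p14) and 3′ UTRs (GENCODE 29, at least 20 bases, 91.1% of tested genes) were matched by symbol, with older symbols for the promoters of 80.5% of tested genes. The build differs from hg19, so coordinates are those of the sequence tables. The 7-mer step (at least 100 genes per 7-mer) was added after the data were examined. Sequences were searched in Python 3.11.15 (pandas 2.3.3, numpy 2.4.6).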

Additional observations from a re-analysis of the deposited data

How the results depend on the processing

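The direction of both class medians and of their gap held under every alternative computed. The mitotic median ranged from 0.31 to 0.41 over the fits that left out 1 library, the transport median from -0.51 to -0.37 and their gap from 0.68 to 0.93. Over the same fits the count of all genes past the threshold ranged from 0 to 3906 (0 without control replicate 1, 1 without control replicate 2), kinesins past it from 0 to 4 higher and from 0 to 6 lower, and kinesins at an unadjusted p under 0.05 from 1 to 9 higher and from 1 to 8 lower. Without miRs replicate 1, KIF18A and KIF20B passed higher and KIF5B, KIFC3, KIF13A and KIF13B lower, 6 of 27 kinesins beside 2191 of 11798 genes. Without miRs replicate 2, KIF2C, KIFC1, KIF1C and KIFC2 joined them, 10 of 27 beside 3906 of 11802 genes. With either control left out, no kinesin passed the adjusted threshold in limma. A lone library is assumed there to vary like the other group. The 2 miRs libraries differed more from each other (r = 0.949, 1115 genes over 2-fold apart) than the 2 controls (r = 0.985, 224 genes). The cause of the shifts between these fits was not tested. With no minimum FPKM 0 genes passed in limma, where 3338 had an unadjusted p under 0.05. With a minimum mean of 5 FPKM 19 kinesins were tested. At an unadjusted p under 0.05 in limma, 7 were higher and 3 lower, beside 2128 of 8444 genes in either direction. Without overlap between the groups 9 were higher and 6 lower. The share of all genes without overlap was 59.5% in the main fit and was not computed at this minimum. With the replicate block, 99 genes passed and 0 kinesins. The numbers do not establish pairs, since with 1 comparison of deviations (r = 0.20 across genes) they share only a label. Median-of-ratios rescaling and quantile normalization moved the median of all genes to 0.003 and -0.02. The sign reversed for KIF2A with quantile normalization (-0.017) and, over the fits that left out 1 library, for KIF11 (-0.24 to 0.19), KIF1B (-0.32 to 0.064), KIF2A (-0.058 to 0.096) and KIF7 (-0.20 to 0.085). Of 289 values of single kinesins under alternatives, 267 kept sign and side of the threshold. Depth limits the 15 kinesins under 1 FPKM, which were not tested.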
